A study of Mus musculus with 12 samples.

Results

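The DUSP MAP kinase phosphatases described here are 7 genes, Dusp1, Dusp2, Dusp4, Dusp5, Dusp6, Dusp10 and Dusp16, chosen by name from the 54115 genes quantified in sorted mouse eosinophils. Their reads were summed over the annotated transcripts of each gene. The donors were 5 chow-fed FVB/NJ males of 20 weeks, which gave 12 libraries, and no allele, transgene or drug is named for any group. Eosinophils of gonadal white adipose tissue were taken from mice 2846, 2807, 2683 and 2668, those of subcutaneous white adipose tissue from mice 2846, 2807, 2771 and 2668, and those of blood from mice 2807, 2771, 2683 and 2668. All were sorted as live CD45+ CD11b+ Siglec-F+ cells. Cells of both fat depots had first been released with collagenase II (45 min at 37 C), a step the labels do not give for blood, so the depot and the digestion cannot be told apart in any comparison with blood.

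MAP kinases are switched on by phosphorylation of a threonine and a tyrosine in their activation loop. DUSP phosphatases of this class remove both phosphates, and a docking domain sets which MAP kinase each one prefers. Dusp1, Dusp2, Dusp4 and Dusp5 encode nuclear enzymes, Dusp6 a cytoplasmic enzyme selective for ERK, and Dusp10 and Dusp16 enzymes that prefer p38 and JNK. Many are themselves transcribed when a MAP kinase pathway is active, so their RNA is often read as a trace of recent signalling and as the feedback that ends it. Eosinophils respond through these kinases to IL-5, eotaxin and related signals.

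Against blood, 4 of the 7 genes were higher in gonadal eosinophils (Dusp1, Dusp2, Dusp4 and Dusp10), 1 was lower (Dusp6) and 2 did not pass the test (Dusp5 and Dusp16). In that comparison 27.0% of all 15367 genes tested were called, 15.4% higher and 11.6% lower, at a Benjamini-Hochberg adjusted p under 0.05 in edgeR's quasi-likelihood test. In subcutaneous eosinophils 4 genes were higher (Dusp1, Dusp2, Dusp5 and Dusp10), Dusp6 was again lower, and Dusp4 and Dusp16 did not pass, where 26.8% of all genes were called, 15.4% higher and 11.4% lower. Both comparisons use the same blood libraries. Between gonadal and subcutaneous eosinophils none of the 7 was called, where 0.00651% of all genes were. The median log2 fold change of the 7 genes was 1.44 in gonadal and 1.85 in subcutaneous eosinophils against blood, beside 0.0756 and 0.0664 over all genes tested. The 7 genes were chosen with earlier results of these data known. Their counts and medians are therefore descriptions and no test of the family.

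The genes lie on 7 chromosomes of GRCm38. Dusp1 (ENSMUSG00000024190) spans chr17:26505590-26562128 on the minus strand, although nearly all its reads fell on transcripts within chr17:26505590-26508519. Dusp2 (ENSMUSG00000027368) lies at chr2:127336159-127338376, Dusp4 (ENSMUSG00000031530) at chr8:34807297-34819894, Dusp5 (ENSMUSG00000034765) at chr19:53529109-53542431, Dusp6 (ENSMUSG00000019960) at chr10:99263231-99267489 and Dusp10 (ENSMUSG00000039384) at chr1:184013302-184075636, all on the plus strand. Dusp16 (ENSMUSG00000030203) lies on the minus strand at chr6:134715468-134792625. A few antisense genes overlap them. Those at Dusp5, Dusp10 and Dusp16 held at most 39 reads in a library, and Ergic1 overlaps only the far upstream end of Dusp1.

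Promoters are shown for the 4 genes whose call against blood passed in the same direction in both depots, Dusp1, Dusp2 and Dusp10 upward and Dusp6 downward. Each runs from 250 bases before to 50 bases after the RefSeq start site (GRCm38.p6), 5′ to 3′ along the gene, and capitals mark motif matches found on either strand. The windows are chr17:26508423-26508722 (minus strand) for Dusp1, chr2:127335909-127336208 for Dusp2, chr1:184034131-184034430 for Dusp10 and chr10:99262981-99263280 for Dusp6.
Dusp1: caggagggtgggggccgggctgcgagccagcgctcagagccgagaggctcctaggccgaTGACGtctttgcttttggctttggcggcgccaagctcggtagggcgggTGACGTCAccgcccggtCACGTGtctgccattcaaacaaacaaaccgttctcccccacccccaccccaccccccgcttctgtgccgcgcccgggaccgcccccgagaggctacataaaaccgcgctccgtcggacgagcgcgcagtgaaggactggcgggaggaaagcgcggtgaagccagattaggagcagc
Dusp2: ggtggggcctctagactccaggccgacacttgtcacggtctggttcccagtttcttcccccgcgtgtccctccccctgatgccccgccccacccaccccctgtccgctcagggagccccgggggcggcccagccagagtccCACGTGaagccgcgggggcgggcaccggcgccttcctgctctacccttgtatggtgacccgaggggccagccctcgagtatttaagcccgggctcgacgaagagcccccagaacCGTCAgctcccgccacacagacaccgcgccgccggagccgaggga
Dusp10: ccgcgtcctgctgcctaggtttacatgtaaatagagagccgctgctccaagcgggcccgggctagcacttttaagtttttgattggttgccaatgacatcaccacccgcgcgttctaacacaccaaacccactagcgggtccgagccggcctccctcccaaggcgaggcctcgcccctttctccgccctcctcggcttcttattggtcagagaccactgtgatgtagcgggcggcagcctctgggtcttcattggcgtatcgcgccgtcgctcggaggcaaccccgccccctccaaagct
Dusp6: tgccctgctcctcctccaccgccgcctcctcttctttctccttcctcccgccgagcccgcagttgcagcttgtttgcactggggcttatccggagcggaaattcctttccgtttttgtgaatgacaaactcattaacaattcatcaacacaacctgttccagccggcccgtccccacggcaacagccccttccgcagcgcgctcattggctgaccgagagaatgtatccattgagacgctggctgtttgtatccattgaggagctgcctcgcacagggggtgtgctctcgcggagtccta

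The Dusp1 window held the full cyclic AMP response element TGACGTCA, starting 143 bases before the start site, with a further half-site TGACG starting 191 bases before it and an E-box CACGTG starting 126 bases before it. The full element, which contains a half-site on each strand, was found in 1.79% of 32851 mouse promoter windows of the same length. The half-site was found in 20.8% and the E-box in 7.15%. These windows were not matched for GC content, which had a median of 52.7% over all of them. It was 67.0% in the Dusp1 and 70.7% in the Dusp2 window. The Dusp2 window held an E-box 109 bases before the start site and a half-site on the opposite strand 5 bases after it. The Dusp10 and Dusp6 windows held no match to the motifs searched, which also included the AP-1 site TGANTCA (7.81% of windows), the EGR site GCGTGGGCG (0.612%), the CArG box (1.63%) and the NF-kB site (4.51%). Of the windows not shown, that of Dusp5 held matches to the CArG box and the half-site, and that of Dusp16 to the half-site. A match describes letters in the window and was not tested as a site in these cells.

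Library depth was 4379954 reads in the subcutaneous library of mouse 2846 and 12477671 to 23734940 in the others, after summing over genes. Mitochondrial ribosomal RNA took 28.1% of that shallow library and 4.66% to 8.79% of the others. Eosinophil markers were present in all groups, but of 15 listed 7 were called lower in each depot, 1 was called higher in gonadal and none in subcutaneous eosinophils. Siglecf averaged 340.6 CPM in gonadal, 307 CPM in subcutaneous and 273 CPM in blood libraries, and Ccr3, the eotaxin receptor, averaged 725, 704 and 1526 CPM in the same groups. Ear2, an eosinophil ribonuclease gene with near-identical copies, averaged 36.1 CPM in gonadal, 17.8 CPM in subcutaneous and 232 CPM in blood libraries. Epx and Prg2, which encode granule proteins made mostly by precursors, stayed under 8 CPM in each library. Markers of other cells were present too. The summed level of 14 macrophage markers ran from 1267 to 2890 CPM in gonadal, from 1409 to 3627 CPM in subcutaneous and from 771 to 1080 CPM in blood libraries, and 7 of the 14 were called higher in each depot. In blood, the macrophage markers C1qa, Folr2 and Timd4 were at 0 in 1 library each and Lyve1 in 3. The summed level of 11 neutrophil markers ran from 374 to 802 CPM in gonadal, from 409 to 1296 CPM in subcutaneous and from 2916 to 4261 CPM in blood libraries. Most of the blood sum was Retnlg, at a mean of 2582 CPM, followed by Mmp9 at 574.4 CPM. In blood, S100a9 averaged 154.8 CPM, Ly6g 0.943 CPM and Camp 0.168 CPM. Among 10 fibroblast and progenitor markers 7 were called higher in each depot, with a highest sum of 5737 CPM in the subcutaneous library of mouse 2846. CPM is the usual depth-scaled read count, here with TMM-scaled library sizes. In these bulk libraries, a lower level in each cell and fewer cells that express a gene cannot be told apart.

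**Figure D1:**
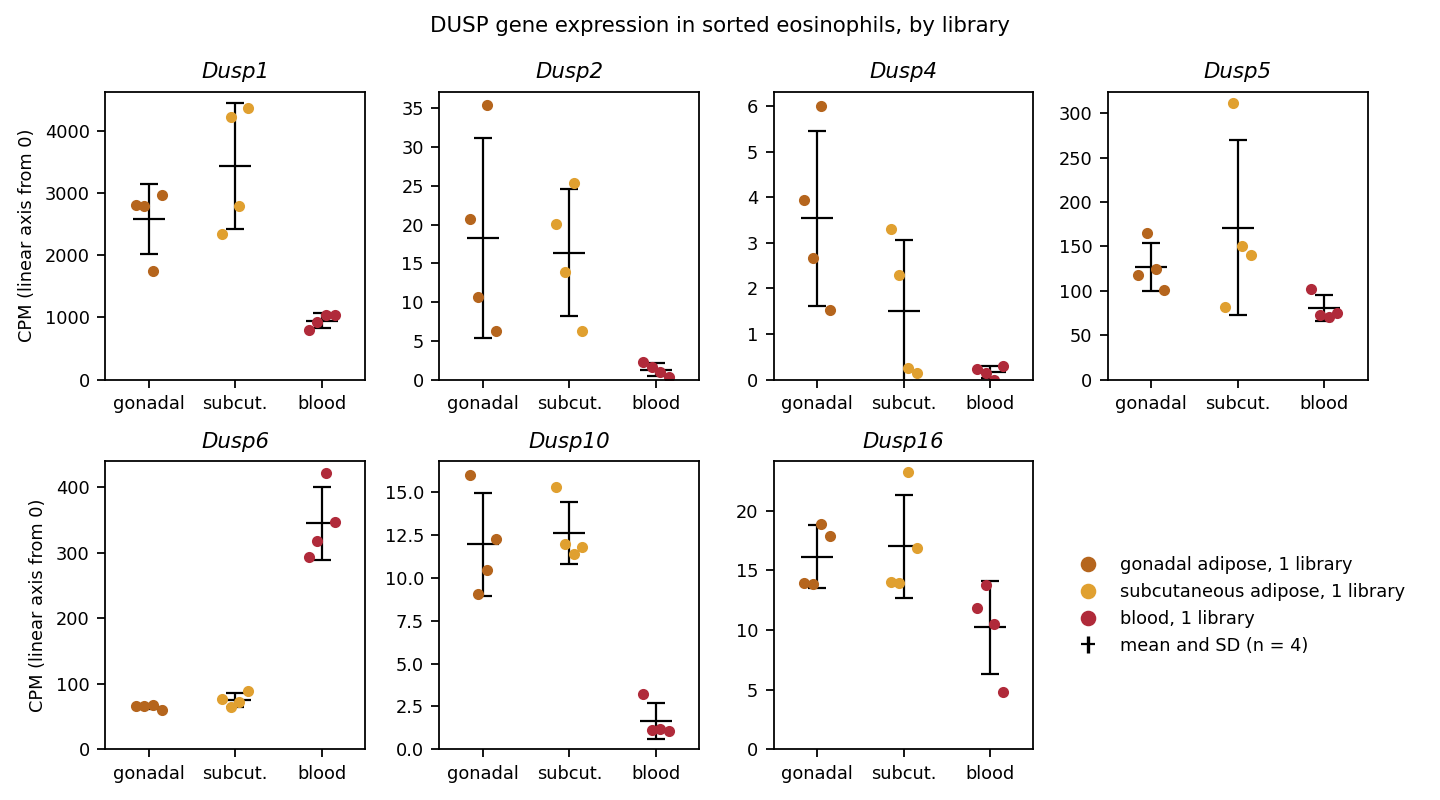
Expression of the 7 DUSP genes in each library, in CPM on linear axes from 0, for gonadal, subcutaneous and blood eosinophils; points are libraries and black marks the mean and SD of 4. Dusp1, Dusp2, Dusp10 and Dusp16 were higher in every library of both depots than in any blood library, and Dusp6 was lower in every one.

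Dusp1, the broadly acting nuclear phosphatase and a classic immediate early gene, was the most abundant of the 7 in every group, over all transcripts. It had 2815, 2800, 1753 and 2978 CPM in gonadal libraries (mice 2846, 2807, 2683 and 2668), 2348, 4225, 2796 and 4371 CPM in subcutaneous libraries (mice 2846, 2807, 2771 and 2668), and 798.1, 926.8, 1043 and 1036 CPM in blood libraries (mice 2807, 2771, 2683 and 2668). The lowest fat library, gonadal 2683, still stood above the highest blood library. The log2 fold change against blood was 1.44 in gonadal (SE 0.252, edgeR adjusted p = 0.00158) and 1.85 in subcutaneous eosinophils (SE 0.255, adjusted p = 0.000354).

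Dusp2, a nuclear phosphatase first known from activated lymphocytes, was far less abundant. It measured 20.8, 10.7, 35.4 and 6.28 CPM in gonadal libraries and 20.1, 13.9, 25.3 and 6.25 CPM in subcutaneous libraries, in the same order of mice, against 2.26, 1.69, 0.943 and 0.298 CPM in blood libraries. No fat library overlapped with blood, although libraries within each depot differed by several fold. The log2 fold change was 3.82 in gonadal (SE 0.696, adjusted p = 0.0022) and 3.65 in subcutaneous eosinophils (SE 0.693, adjusted p = 0.00287).

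The summed macrophage markers, like Dusp2, were higher in every fat library than in any blood library. Most of the blood sum was Csf1r and Adgre4, which were not called in either depot. Adgre4 averaged 299 CPM in gonadal, 324 CPM in subcutaneous and 416 CPM in blood libraries. Within subcutaneous and within blood libraries, Dusp2 had the same order as the summed macrophage markers, and within gonadal libraries it did not. The part of macrophage markers in the Dusp2 difference was not tested. The summed level of 6 monocyte markers ran from 903 to 6693 CPM in gonadal, from 384 to 1428 CPM in subcutaneous and from 90.7 to 1828 CPM in blood libraries, with 1 of the 6 called higher in each depot. Most of the gonadal and blood sums was Fn1, the fibronectin gene, which averaged 2819 CPM in gonadal, 251 CPM in subcutaneous and 519 CPM in blood libraries and did not pass in either depot. Ly6c2, a defining marker of inflammatory monocytes, averaged only 0.555 CPM in gonadal, 3.75 CPM in subcutaneous and 2.61 CPM in blood libraries. Within gonadal and within blood libraries, Dusp2 had the same order as the summed monocyte markers, and within subcutaneous libraries it did not. Their part in the Dusp2 level was not tested. The gonadal library of mouse 2683, lowest in Dusp1, also had the lowest gonadal sum of 15 eosinophil markers (4000 CPM, against 6260 to 8609 CPM in the other gonadal libraries), and the part of this in its Dusp1 level was not tested.

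**Figure D2:**
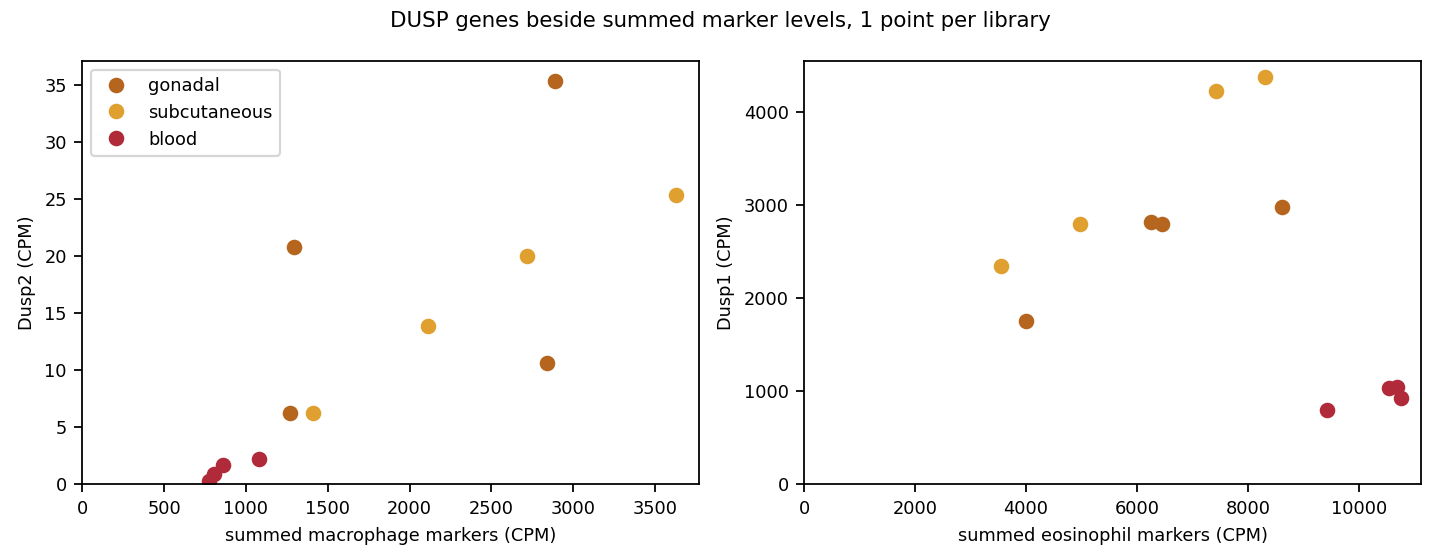
Left, Dusp2 against the summed macrophage markers; right, Dusp1 against the summed eosinophil markers, all in CPM, with 1 point per library. Blood libraries lie at 771 to 1080 CPM of macrophage markers and at the highest eosinophil sums, 9433 to 10760 CPM, and had the lowest Dusp1. Within each depot, the library with the lowest eosinophil sum had the lowest Dusp1 and that with the highest sum the highest. In blood this held for the lowest sum only. The part of eosinophil content in the Dusp1 difference was not tested.

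Dusp4, a nuclear phosphatase close in sequence to Dusp1, was near the detection limit in blood, with 13 reads over all 4 libraries. It had 3.94, 2.67, 6.01 and 1.52 CPM in gonadal libraries, 3.29, 2.3, 0.248 and 0.147 CPM in subcutaneous libraries and 0.237, 0.141, 0 and 0.298 CPM in blood libraries. All gonadal libraries stood above blood, whereas the subcutaneous libraries of mice 2771 and 2668 lay within the range of blood. The gonadal difference passed the test (log2 fold change 4.33, SE 1.14, adjusted p = 0.0147) and the subcutaneous one did not (3.01, SE 1.11, adjusted p = 0.0596). With mouse as a block, the gonadal difference did not pass either (3.504, adjusted p = 0.0902).

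Dusp5, the nuclear phosphatase selective for ERK, had the smallest fold change among the genes called. It measured 117.4, 164.9, 124.6 and 101.1 CPM in gonadal libraries, 81.5, 311.8, 150.0 and 140.6 CPM in subcutaneous libraries and 102.3, 72.8, 70.9 and 75.2 CPM in blood libraries. Blood 2807 overlapped with the lowest library of each depot. The log2 fold change was 0.66 in gonadal (SE 0.324, adjusted p = 0.149) and 1.09 in subcutaneous eosinophils (SE 0.327, adjusted p = 0.0272). The subcutaneous call was lost without the subcutaneous library of mouse 2807 (log2 fold change 0.63, adjusted p = 0.0699), and also without each of the blood libraries 2771, 2683 and 2668 (adjusted p = 0.0734, 0.0758 and 0.0754). The gonadal difference passed with mouse as a block (0.77, adjusted p = 0.0476) and without that same subcutaneous library (0.66, adjusted p = 0.0457). Neither depot gave a call for Dusp5 that held under all the settings tried.

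Dusp6, the cytoplasmic ERK phosphatase, moved the other way. It had 65.5, 66.3, 67.5 and 59.7 CPM in gonadal libraries and 76.1, 64.1, 71.7 and 89.3 CPM in subcutaneous libraries, against 292.6, 318.2, 421 and 346.2 CPM in blood libraries. Its gonadal values were the most even of any member, with a coefficient of variation of 5.41%. The log2 fold change was -2.41 in gonadal (SE 0.155, adjusted p = 2.0e-06) and -2.19 in subcutaneous eosinophils (SE 0.154, adjusted p = 2.3e-06), and within each of the 3 mice sampled in both tissues Dusp6 was lower in the fat. Neutrophil markers were also lower in both depots, with 7 of 9 tested called lower, and their part in the Dusp6 difference was not tested.

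Dusp10 and Dusp16 encode the phosphatases that prefer p38 and JNK. Dusp10 measured 16.0, 9.08, 10.5 and 12.3 CPM in gonadal libraries and 15.3, 11.96, 11.4 and 11.8 CPM in subcutaneous libraries, against 3.21, 1.13, 1.15 and 1.04 CPM in blood libraries. Its log2 fold change was 2.87 in gonadal (SE 0.395, adjusted p = 0.00034) and 2.95 in subcutaneous eosinophils (SE 0.397, adjusted p = 0.000308). Dusp16 measured 13.98, 13.83, 18.9 and 17.9 CPM in gonadal, 14.07, 13.94, 23.2 and 16.9 CPM in subcutaneous, and 11.9, 13.76, 10.5 and 4.76 CPM in blood libraries. Its groups did not overlap, by a narrow margin, yet the log2 fold changes of 0.66 (SE 0.305, adjusted p = 0.125) and 0.74 (SE 0.307, adjusted p = 0.0897) did not pass. Fat and blood did not overlap for 6 of the 7 genes in the gonadal and 5 in the subcutaneous comparison, where 36.3% and 29.5% of all genes tested did not overlap.

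**Figure D3:**
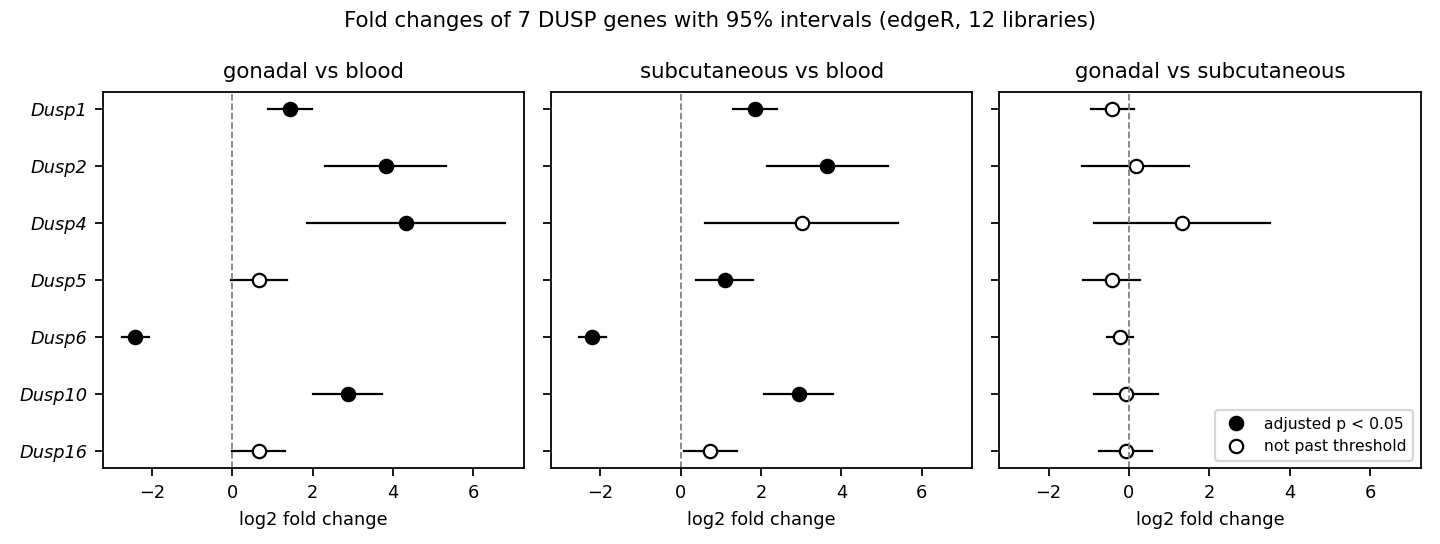
Log2 fold changes of the 7 genes with 95% confidence intervals for gonadal against blood, subcutaneous against blood and gonadal against subcutaneous eosinophils; filled points passed an adjusted p of 0.05. Dusp2 and Dusp4 have the widest intervals and Dusp6 the narrowest, and in the comparison of the depots each interval crosses 0.

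The gonadal and subcutaneous levels overlapped for all 7 genes, where 3.62% of all genes tested did not overlap. The largest log2 difference, gonadal minus subcutaneous, was 1.32 for Dusp4, with a 95% interval from -0.87 to 3.5, which leaves room for a large difference in either direction. The intervals were tighter for Dusp6, from -0.54 to 0.10 around -0.22, and for Dusp1, from -0.94 to 0.13 around -0.41. Dusp2 differed by 0.16 (interval -1.17 to 1.5), Dusp5 by -0.43 (-1.13 to 0.27), Dusp10 by -0.07 (-0.86 to 0.72) and Dusp16 by -0.08 (-0.74 to 0.58). The smallest adjusted p among them was 0.719, for Dusp1.

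Compared per length, in TPM over all transcripts of a gene, Dusp1 stood far above the others in every group. In blood most Dusp1 reads lay on transcripts not annotated as coding. Counted in reads, coding Dusp1 there averaged 256.8 CPM, below the 322.6 CPM of coding Dusp6. In TPM, coding Dusp1 stood above coding Dusp6 in the blood libraries of mice 2807, 2771 and 2668 and below it in that of mouse 2683. In gonadal eosinophils the order was Dusp1 (568 ± 168 TPM, SD, n = 4), Dusp5 (18.4 ± 4.69), Dusp6 (8.77 ± 0.254), Dusp2 (5.06 ± 3.25), Dusp10 (1.5 ± 0.319), Dusp16 (1.45 ± 0.421) and Dusp4 (0.438 ± 0.207). The neighbours Dusp6 and Dusp2, and Dusp10 and Dusp16, overlapped in range, and so did Dusp2 and Dusp16. Subcutaneous eosinophils had the same order, from 713 ± 357 TPM for Dusp1 to 0.187 ± 0.193 TPM for Dusp4, with overlaps between Dusp5 and Dusp6, Dusp2 and Dusp10, and Dusp10 and Dusp16. In blood the order was Dusp1 (184 ± 37.2 TPM), Dusp6 (53.4 ± 9.99), Dusp5 (11.4 ± 5.0), Dusp16 (0.815 ± 0.512), Dusp2 (0.443 ± 0.502), Dusp10 (0.255 ± 0.17) and Dusp4 (0.0238 ± 0.0189). There Dusp16, Dusp2 and Dusp10 all overlapped with one another in range. Dusp1 made up 93.6% of the TPM of the 7 genes on average in gonadal, 94.2% in subcutaneous and 73.5% in blood libraries. Dusp6 made up 1.55%, 1.55% and 21.5% in the same groups.

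The ratio of Dusp1 to Dusp6 reads did not overlap between fat and blood, which follows from the opposite differences of the 2 genes given above. It counts RNA reads of all transcripts, and in blood most Dusp1 reads lay on transcripts not annotated as coding. Reads of Dusp1 per read of Dusp6 numbered 43.0, 42.3, 26.0 and 49.9 in gonadal libraries, 30.9, 65.9, 39.0 and 49.0 in subcutaneous libraries and 2.73, 2.91, 2.48 and 2.99 in blood libraries. This ratio within a library does not depend on the scaling between libraries.

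Total RNA libraries also hold incompletely spliced RNA, and for Dusp1 the kind of transcript differed between blood and fat. Besides the protein-coding transcripts Dusp1-202 and Dusp1-206, reads fell on Dusp1-203 and Dusp1-204, which are annotated as retained-intron transcripts. Dusp1-203 keeps intron 2 of Dusp1-202, 369 bases at chr17:26507205-26507573, and Dusp1-204 keeps intron 3, 334 bases at chr17:26506651-26506984. The share of Dusp1 reads on transcripts not annotated as coding was 32.8%, 27.1%, 27.8% and 32.6% in gonadal libraries, 46.9%, 27.1%, 32.6% and 36.6% in subcutaneous libraries and 64.7%, 68.1%, 80.0% and 76.8% in blood libraries. Each value rests on 7841 to 59404 reads, and the 95% Wilson interval of the least precise one, subcutaneous 2846, ran from 45.8% to 48.0%, which covers counting error only. The groups did not overlap: the highest fat library, subcutaneous 2846, stood below the lowest blood library.

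The sequences at the boundaries that tell these transcripts apart are shown because a read across one of them marks the intron as kept or removed. Each is 40 bases of the GENCODE M21 transcripts on the minus strand, with 20 bases on each side of the boundary, exon letters in lower case and intron letters in capitals. Both introns begin with GT and end with AG, the usual splice site letters.
Exon 2 into intron 2 (Dusp1-203, chr17:26507554-26507593): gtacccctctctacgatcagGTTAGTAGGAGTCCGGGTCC
Intron 2 into exon 3 (Dusp1-203, chr17:26507185-26507224): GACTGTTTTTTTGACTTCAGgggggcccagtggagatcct
Exon 2 joined to exon 3 (Dusp1-202): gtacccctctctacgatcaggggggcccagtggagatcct
Exon 3 into intron 3 (Dusp1-204, chr17:26506965-26507004): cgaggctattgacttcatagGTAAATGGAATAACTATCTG
Intron 3 into exon 4 (Dusp1-204, chr17:26506631-26506670): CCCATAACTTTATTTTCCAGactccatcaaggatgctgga
Exon 3 joined to exon 4 (Dusp1-202): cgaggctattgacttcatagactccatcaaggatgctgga

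**Figure D4:**
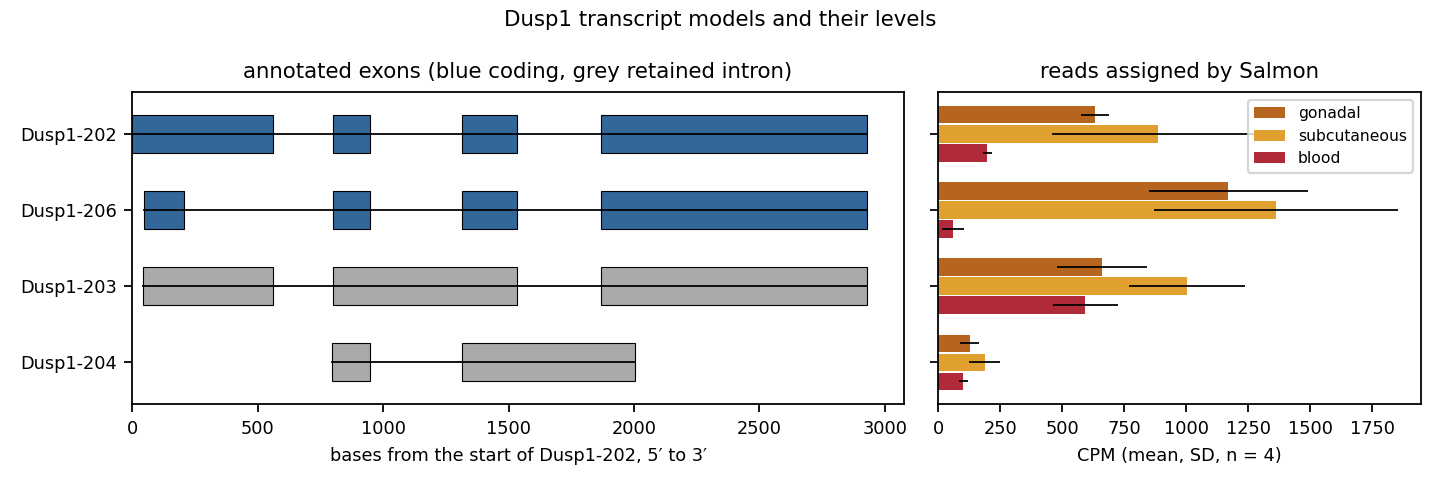
Left, annotated exons of 4 Dusp1 transcripts in bases from the start of Dusp1-202, with coding transcripts in blue and retained-intron transcripts in grey; right, their mean level with SD in CPM (n = 4 each). Dusp1-206 averaged 1169 CPM in gonadal, 1361 CPM in subcutaneous and 59.0 CPM in blood libraries, while Dusp1-203 averaged 660, 1002 and 593 CPM. Dusp1-202 averaged 632.3, 884.5 and 197.8 CPM in the same groups.

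The mean share on non-coding models was 30.1% ± 3.04 in gonadal and 35.8% ± 8.37 in subcutaneous against 72.4% ± 7.16 in blood libraries (SD, n = 4 each). A two-sided exact permutation test over libraries gave p = 0.0286 for each depot against blood, the smallest that 4 against 4 libraries allow, and 0.0952 after adjustment over the 10 shares tested, so it did not pass. After this adjustment a share could pass only if most of the 10 reached that smallest p, so the adjusted test could hardly decide the question. Between the depots the exact permutation p was 0.343. Reads on coding Dusp1 transcripts averaged 1801 ± 363 CPM in gonadal, 2246 ± 837 CPM in subcutaneous and 256.8 ± 39.4 CPM in blood libraries. Reads on the other Dusp1 transcripts averaged 786 ± 218, 1189 ± 291 and 694 ± 148 CPM in the same groups.

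A fit that kept coding and other transcripts of each gene apart was added after these shares had been seen. In it, coding Dusp1 had a log2 fold change of 2.82 in gonadal (SE 0.30, adjusted p = 9.3e-05) and 3.12 in subcutaneous eosinophils (SE 0.304, adjusted p = 3.6e-05) against blood. The other Dusp1 transcripts changed by 0.19 (SE 0.259, adjusted p = 0.691) and 0.77 (SE 0.26, adjusted p = 0.0607), which did not pass. The difference between the classes, tested across 7270 genes with both, was 2.63 in gonadal (adjusted p = 0.00254, where 0.770% of genes were called) and 2.36 in subcutaneous eosinophils (adjusted p = 0.00202, where 2.48% were called). Between the depots it was 0.27 (adjusted p = 0.97, where 0.165% were called). The division of reads among transcripts that share exons is Salmon's estimate, and what RNA the intron reads came from was not tested.

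**Figure D5:**
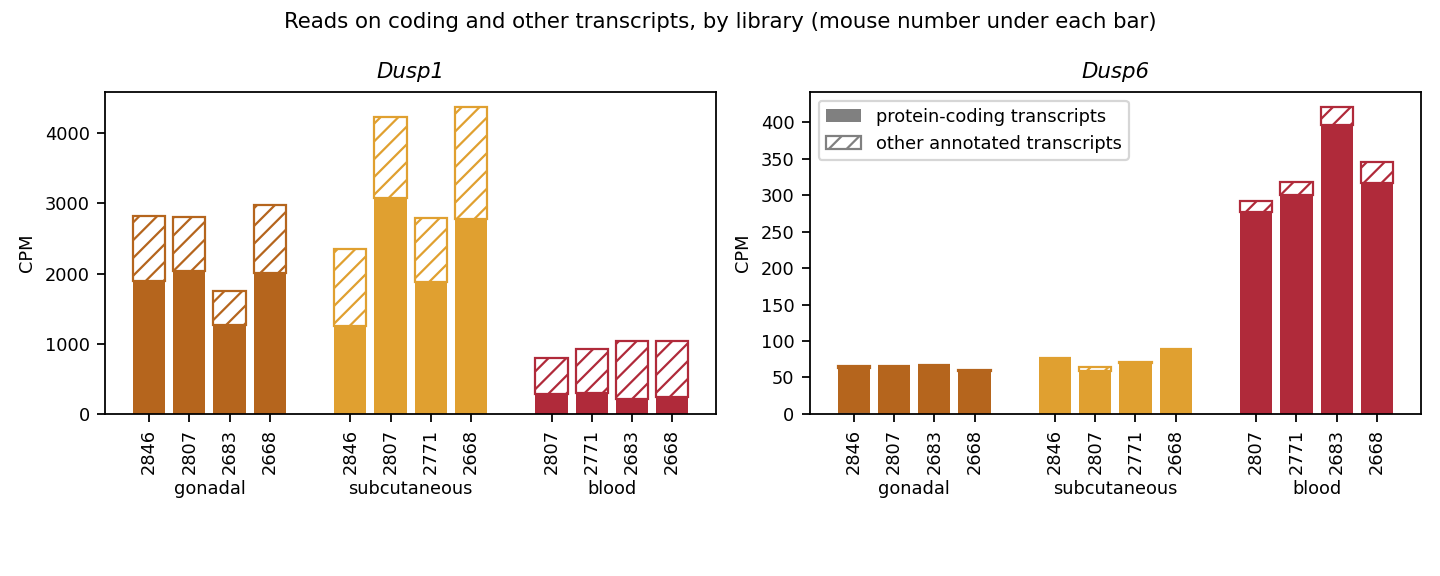
Reads of Dusp1 (left) and Dusp6 (right) in CPM, by library, on protein-coding transcripts (solid) and other annotated transcripts (hatched), with the mouse number under each bar. Coding reads were the larger part of Dusp1 in all fat libraries and the smaller part in all blood libraries, while for Dusp6 the hatched part stayed at or under 8.6% in each library.

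Among coding Dusp1 reads, Dusp1-206 held 55.4% to 69.9% in gonadal, 50.4% to 66.3% in subcutaneous and 7.34% to 36.3% in blood libraries. This model lacks 355 bases of the first exon (chr17:26507957-26508311), and its share was not tested. The coding difference from blood was larger for Dusp1-206 (means of 1169, 1361 and 59.0 CPM in gonadal, subcutaneous and blood libraries) than for Dusp1-202 (632.3, 884.5 and 197.8 CPM). Of Dusp6 reads, the non-coding model Dusp6-202 held 0% to 3.67% in gonadal, 0% to 7.47% in subcutaneous and 5.2% to 8.6% in blood libraries. The exact permutation p was 0.0286 for gonadal and 0.114 for subcutaneous against blood (0.0952 and 0.286 adjusted over the 10 shares), and the class difference did not pass in edgeR either (adjusted p = 0.199 and 0.427). The coding model Dusp6-204, which lacks an internal exon of 438 bases, took between 0% and 98.6% of coding Dusp6 reads from one fat library to another, so the deposited division of Dusp6 among its coding models was not stable between libraries. The fall of Dusp6 held for coding transcripts alone, by -2.33 in gonadal (SE 0.174, adjusted p = 7.6e-06) and -2.15 in subcutaneous eosinophils (SE 0.173, adjusted p = 9.4e-06). Dusp4, Dusp5 and Dusp10 have no non-coding model in the annotation. For Dusp2 the class difference against blood in edgeR, 0.69 in gonadal and 0.94 in subcutaneous eosinophils, did not pass (adjusted p = 0.959 and 0.849). The non-coding share of Dusp2 averaged 15.2% ± 6.45 in gonadal and 15.4% ± 7.66 in subcutaneous libraries (SD, n = 4 each, exact permutation p = 0.971), with too few blood reads for the permutation test. That of Dusp16 averaged 2.1% ± 4.2 in gonadal, 5.56% ± 9.91 in subcutaneous and 0.497% ± 0.994 in blood libraries, with exact permutation p = 1.0 and 0.714 against blood.

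The 3 remaining phosphatases of the same class were Dusp7, Dusp8 and Dusp9. Dusp8, which prefers JNK and p38, had 435 reads in gonadal and 157 in subcutaneous libraries and none in blood. Against a floor of 3 reads over the blood group, it was at least 159-fold higher in gonadal and at least 88.6-fold higher in subcutaneous eosinophils (edgeR adjusted p = 0.000257 and 0.000398). Without the library of mouse 2771, the subcutaneous bound was 53.3-fold. Dusp7, a cytoplasmic ERK phosphatase like Dusp6, averaged 8.47 ± 4.28 CPM in gonadal, 11.5 ± 7.11 CPM in subcutaneous and 8.83 ± 2.19 CPM in blood libraries, and did not pass in either depot (adjusted p = 0.941 and 0.572). Dusp9 had too few reads to be tested. Among 9 atypical DUSP genes tested, which lack the docking domain, Dusp18 fell in both depots (log2 fold change -3.22, SE 0.509, adjusted p = 0.000803, and -2.92, SE 0.505, adjusted p = 0.00159) and Dusp3 rose in gonadal eosinophils (2.67, SE 0.827, adjusted p = 0.0339).

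The kinase cascades that these phosphatases act on were called at shares that stand beside 15.4% of all genes higher in each depot, and 11.6% lower in gonadal and 11.4% lower in subcutaneous eosinophils. Of 21 genes of the RAS, RAF, MEK and ERK cascade, 4 fell and none rose in gonadal eosinophils, and 5 fell and none rose in subcutaneous eosinophils, with median log2 fold changes of -0.20 and -0.28. Rasgrp2, an activator of RAS family GTPases, averaged 38.7 ± 14.6 CPM in gonadal, 69.7 ± 41.4 CPM in subcutaneous and 346.5 ± 48.8 CPM in blood libraries, and fell in both. Of 20 genes of the p38 and JNK cascades, 1 rose and 4 fell in gonadal, and 1 rose and 3 fell in subcutaneous eosinophils. Mapk14, the main p38 kinase, averaged 122 ± 20.1 CPM in gonadal, 101.6 ± 11.2 CPM in subcutaneous and 312.8 ± 21.3 CPM in blood libraries (adjusted p = 6.2e-05 and 1.8e-05). Map3k20 was the gene that rose, with log2 fold changes of 1.33 and 1.76.

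Of 10 kinases downstream of MAP kinases, 2 rose and 2 fell in gonadal and 1 rose and 1 fell in subcutaneous eosinophils, beside the same shares over all genes. Mapkapk2, the p38-activated kinase that acts on mRNA stability, averaged 249.7 ± 49.0 CPM in gonadal, 244.5 ± 86.4 CPM in subcutaneous and 107.6 ± 5.6 CPM in blood libraries and rose in both depots (log2 fold change 1.21 and 1.19). Mknk2 fell in both (-0.81 and -0.97). Of 19 other inhibitors of RAS and MAP kinase signalling, 5 rose and 2 fell in each depot, with median log2 fold changes of 0.87 and 1.2. Spred1, which restrains RAS activation, averaged 47.5 ± 24.8 CPM in gonadal, 50.5 ± 29.5 CPM in subcutaneous and 4.55 ± 3.91 CPM in blood libraries. Gadd45b, which binds MAP kinase kinases of the JNK pathway, averaged 129.3 ± 34.7, 149.2 ± 24.3 and 22.8 ± 1.39 CPM in the same groups.

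Of 19 tested genes that ERK signalling induces early, 13 rose and none fell in gonadal, and 13 rose and 1, Myc, fell in subcutaneous eosinophils, with median log2 fold changes of 2.57 and 2.71. Egr1, an immediate early transcription factor, averaged 228.3 ± 125 CPM in gonadal, 259.7 ± 43.8 CPM in subcutaneous and 6.02 ± 2.61 CPM in blood libraries. Fosb averaged 1152 ± 588, 1846 ± 899 and 69.9 ± 23.3 CPM. A list of 30 genes known to respond to tissue dissociation, which shares Fos, Fosb, Junb, Egr1, Ier2 and Ier3 with the ERK list, rose at 28 genes in gonadal and 29 in subcutaneous eosinophils and fell at none, with median log2 fold changes of 2.92 and 3.61. It includes Hspa1a, a heat shock gene with a near-identical copy, at 389.6 ± 159 CPM in gonadal, 838 ± 489 CPM in subcutaneous and 0.527 ± 0.45 CPM in blood libraries. The part of the digestion in the DUSP differences was not tested and cannot be told apart from the depot. Of 11 genes induced by glucocorticoids, which also induce Dusp1, 4 rose and 4 fell in gonadal and 3 rose and 3 fell in subcutaneous eosinophils.

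Genes whose level followed each DUSP gene most closely were ranked by Pearson's r of log2 CPM over the 12 libraries, among 8734 genes. These r values are descriptions: all genes share the same libraries and depths, and most of the spread is that between fat and blood. Dusp1 was followed by Btg2 (r = 0.986), Fosl2 (0.985) and Sik1 (0.982), and Dusp2 by Rasgef1b (0.984) and Emp1 (0.978). Dusp6 was followed by Calcoco1 (0.985), Myd88 (0.985) and Cdkn2aip (0.982), and Dusp10 by Pola1 (0.981), Dph6 (0.979) and Ckap2l (0.970). The nearest gene was less close for Dusp4 (Parp2, 0.929), Dusp16 (Usp9x, 0.903) and Dusp5 (Ccr1l1, 0.902). Among the members themselves, r was highest between Dusp2 and Dusp10 (0.906) and lowest between Dusp6 and Dusp10 (-0.961).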

How the data were processed

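RNA of sorted eosinophils was measured in 12 total RNA libraries made with a SMARTer stranded pico-input kit, per the labels' protocols. The submitters' processing notes name Trim Galore 0.6.4, Salmon 1.6.0, DESeq2 1.30.1 and mm10. The authors deposited expected counts, TPM and effective lengths for 140992 transcripts, per the file headers. The annotation and the strand setting are not given in the sources used here. With GENCODE M21 (GRCm38), 139791 transcripts matched and 1201 (0.351% to 0.538% of reads) did not and were left out. Expected counts were summed to 54115 genes and rounded. The deposited TPM were summed per gene to compare genes. Numbered mice are separate animals.

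Counts were tested with edgeR 4.0.16 (quasi-likelihood, robust, TMM, filterByExpr by group) in 1 fit of 12 libraries, with Benjamini-Hochberg adjustment over 15367 genes. All 7 members passed the filter. The common biological coefficient of variation was 0.545. The fit was tested on simulated data with independent libraries, the same spread for all genes and large changes only. That did not cover changes as small as those of Dusp5 and Dusp16. CPM used TMM-scaled sizes, and SE is the log2 fold change over the square root of F. Libraries of the same mouse are paired by animal: deviations from group means correlated at -0.111 to 0.358 over 9 same-mouse pairs (mean 0.0842, against -0.0188 between mice). Shares of transcripts were compared with exact permutation tests (SciPy 1.17.1). Alternatives were mouse as a block, DESeq2 1.42.0, other scaling, no filter, 8-library fits, a length offset and leaving out libraries. The members, lists and promoter rule were chosen with earlier results of these data known. Of each pathway list, up to 3 called genes with the largest gonadal change and at least 5 CPM were to be named; Myc, the genes shared by 2 lists and the named markers were added after their values were seen. A few genes that a rule would name are not reported here. Wilson intervals and floors cover counting error only, since no molecular identifiers are named; intervals of log2 fold changes come from edgeR's SE and include the spread between libraries.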

Additional observations from a re-analysis of the deposited data

Results flagged for a closer look

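In 4 of 27 groups of 4 libraries examined for the members and their sister genes, 1 library stood apart from the rest by Dixon's test, where chance flags about 1 in 20 groups. Dusp1 was lowest in the gonadal library of mouse 2683, at 1753 CPM, with the next library at 2800 CPM. Dusp5 was highest in the blood library of mouse 2807, at 102.3 CPM, with the next at 75.17 CPM. Dusp10 was highest in the same blood library, at 3.205 CPM, with the next at 1.152 CPM, and highest among subcutaneous libraries in mouse 2846, at 15.27 CPM, with the next at 11.96 CPM. Blood 2807 also had the highest sum of 6 monocyte markers in blood (1828 CPM, against 90.7 to 358 CPM in the others). The highest blood level of Fn1, 1576 CPM, made up most of that sum. Blood 2807 also had the highest blood sums of macrophage (1080 CPM), dendritic (41.7 CPM), B cell (232 CPM) and T and NK cell markers (40.95 CPM). Its neutrophil and mast cell sums were not the highest, and its eosinophil sum was the lowest in blood (9433 CPM). The part of these markers in the Dusp5 and Dusp10 values was not tested.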

How the results depend on the processing

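Over 20 alternatives, the calls of Dusp1, Dusp2, Dusp6 and Dusp10 against blood kept their direction and passed the test. Their log2 fold changes ranged from 1.34 to 1.57, from 3.25 to 4.21, from -2.7 to -2.3 and from 2.48 to 3.43 in gonadal, and from 1.72 to 2.02, from 3.29 to 4.01, from -2.35 to -2.09 and from 2.75 to 3.46 in subcutaneous eosinophils. Dusp16 passed in none, with a smallest adjusted p of 0.0703 in gonadal and 0.0585 in subcutaneous eosinophils. With mouse as a replicate block, the gonadal Dusp4 call was lost and Dusp5 was gained, as given above, the block changed no other member's call, and genes called numbered 3277 in gonadal and 2910 in subcutaneous eosinophils against blood and 0 between the depots. For subcutaneous Dusp4, DESeq2 (adjusted p = 0.0119) and leaving out subcutaneous 2771 (0.0454) or 2668 (0.0326) passed, and the 8-library fit filtered it out. Gonadal Dusp5 also passed in the 8-library fit (0.0205), and subcutaneous Dusp5 did not (0.0503). Without the subcutaneous 2846 and blood 2807 libraries, chosen after seeing the data, 5 members were higher and 1 lower in gonadal (Dusp5 passed, 0.0396) and 4 higher and 1 lower in subcutaneous eosinophils.

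Genes called over leave-one-out fits ranged from 2753 (without blood 2771) to 5075 in gonadal and from 2737 (without blood 2683) to 4256 in subcutaneous eosinophils against blood. Between the depots 1 gene was called by edgeR, 0 to 7 over leave-one-out fits, 152 by DESeq2, and 0 in the 8-library fit and without subcutaneous 2846 and blood 2807. Signs turned only between the depots or in small shares. Over leave-one-out fits, the depot log2 difference ran from -0.37 to 0.46 for Dusp2, from -0.66 to 0.035 for Dusp5, from -0.25 to 0.039 for Dusp10 and from -0.17 to 0.10 for Dusp16. It was 0.037 for Dusp16 with mouse as a replicate block and 0.026 for Dusp10 without subcutaneous 2846 and blood 2807. The non-coding share, in percentage points, ran from -3.62 to 2.65 for Dusp2 (0.607 in TPM), from -2.16 to 0.332 for Dusp6 and from -5.56 to 1.48 for Dusp16 between the depots, and from -0.497 to 2.3 for Dusp16 in gonadal against blood. The cause was not tested. The Dusp1 share difference stayed between -44.9 and -39.8 points in gonadal and between -40.3 and -33.7 in subcutaneous eosinophils when libraries were left out. At 13 reads of Dusp4 in blood, depth limits its fold change.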
